A study of Mus musculus with 5 samples.

Results

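The nuclei described here were 262 pial and perivascular fibroblast nuclei of the mouse brain, out of 9505 nuclei that passed the limits on quality and 9748 that were deposited. They were selected on their own transcripts. Single-nucleus RNA-seq counts captured RNA molecules by their unique molecular identifiers (UMIs), and a nucleus was a member if it held at least 4 UMIs summed over Lama1, Pdgfra, Adamts12, Cemip, Slc6a13 and Dcn, and more of these than of Slc47a1, Slc4a10, Foxp2, Adamtsl3 and Kcnb2, the genes of a second, arachnoid-type kind of fibroblast nucleus. At most 1 UMI of the mural genes Atp13a5 and Abcc9 and at most 2 of the neuronal genes Snap25 and Syt1 were allowed. The members lay in all 5 libraries, with 63 and 81 of them from R241E mice and 22, 45 and 51 from WT mice. By the mirrored rule 305 nuclei were of the arachnoid type (133 and 70 in R241E, and 22, 29 and 51 in WT).

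Each library came from 1 mouse. The 2 R241E mice carried the tamoxifen-inducible Cre driver Tmem119-creERT2 and 1 copy of Cgas with the R241E change, which frees the DNA sensor cGAS from its restraint by nucleosomes. The 3 WT mice carried the same driver with Cgas wt/wt. The study describes tamoxifen for mice with the R241E allele, as young adults, and whether the WT mice received it is not given in the sources used here. The driver is active mainly in microglia and brain macrophages, so fibroblasts are not among the cells in which it was meant to act. The labels name hippocampus as the tissue and microglia as the cell type, the nuclei were sorted as negative for NeuN and Olig2 to enrich microglia, and no marker of fibroblasts was used in the sort. For the controls, the sample titles (Cgas wt/wt) were followed. A text on treatment of aged mice with H151 or DMSO accompanies every sample, but no label assigns it to one, and it was not used.

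Fibroblasts of the brain lie in its coverings and along its larger vessels. The pia, the innermost layer of the meninges, rests on the basement membrane at the brain surface and continues along penetrating vessels as perivascular fibroblasts, and both kinds are known for basement membrane and collagen synthesis, retinoic acid production and the transport of solutes between cerebrospinal fluid and tissue. Arachnoid cells form the barrier layer above the pia. Type I interferon, released by cells in which cGAS has activated STING, acts on the receptor of neighbouring cells and induces interferon-stimulated genes.

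Member nuclei had a median depth of 3399 and 2453 UMIs for the R241E mice, and of 2590.5, 3285 and 2169 UMIs for the WT mice, with 794 to 9538 UMIs over all members, so that depth overlapped between the genotypes. Their counts summed to 234292 and 216844 (R241E) and to 67221, 146797 and 125891 (WT), and WT replicate 1, with 22 nuclei, gave the least precise values. Levels below are CPM, the UMIs of a gene scaled to a total of 1e+06 UMIs in each sum. No member barcode occurred among the members of another library, and kept nuclei of any pair of libraries shared at most 2 barcodes. Xist, transcribed from the inactive X chromosome, lay between 1839 and 2420 CPM in the kept nuclei of all 5 libraries, so sex did not separate the groups. Intervals and limits given below cover counting error only.

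The 6 genes that chose the nuclei were seen together in most of them. All 6 were detected in 104 of the 262 nuclei, at least 5 in 185 (70.6%) and at least 3 in 247 (94.3%), while 8 nuclei held 2 of them and 7 only 1. In the GRCm38.p6 annotation of the mm10 build these genes are Lama1 (chromosome 17, 67697127 to 67822645), Pdgfra (chromosome 5, 75151322 to 75198206), Adamts12 (chromosome 15, 11064773 to 11349232), Cemip (chromosome 7, 83932857 to 84086693), Slc6a13 (chromosome 6, 121300288 to 121337721) and Dcn (chromosome 10, 97479500 to 97518163). Adamts12, a secreted metalloprotease, averaged 1761 ± 396 CPM (SD, n = 5 libraries). Lama1, the laminin α1 chain of embryonic and pial basement membranes, averaged 1682 ± 183 CPM, Cemip, which takes part in hyaluronan breakdown, 1689 ± 237 CPM, and Pdgfra, a receptor for platelet-derived growth factor, 1740.2 ± 662 CPM. Slc6a13, a GABA and taurine transporter, stood at 1025 ± 202 CPM and Dcn, the proteoglycan decorin, at 1018 ± 438 CPM. Lama1 was detected in 84.7% of members and 0.196% of microglia nuclei, and Pdgfra in 87% and 0.196%, where the median microglia nucleus held between 2123 and 3187 UMIs in each library. These values describe the choice of nuclei and are not a result.

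The rule cut through few nuclei. The median member held 22.5 UMIs of the 6 genes, with a range from 4 to 131. Just inside the limit lay 5 nuclei with 4 UMIs, 60% of which held at least 2 of the genes, and just outside lay 9 nuclei with 3 UMIs, of which 33.3% did. Of 310 nuclei with at least 4 such UMIs, 26 were left out because the arachnoid-type genes were at least as high, 16 for mural and 6 for neuronal transcripts. Among the 5 arachnoid-type genes, only Foxp2, a transcription factor gene at chromosome 6, 14901349 to 15441977, was common in members, in 50.4% of nuclei at 387 ± 103 CPM. The others, Slc47a1, Slc4a10, Kcnb2 and Adamtsl3, averaged between 1.78 and 10.1 CPM.

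The label was checked against fibroblast genes outside the rule. Of 10 such genes, 9 had UMIs in members. Summed, the 10 reached 1413 to 2661 CPM in members, 1727 to 4479 CPM in arachnoid-type nuclei and 113 to 421 CPM in nuclei of neither kind. In every library the sum was lower in members than in arachnoid-type nuclei, so it marked fibroblasts and not this kind of them. By mean level, 7 of the 10 were higher in members. Col1a2, a chain of type I collagen, averaged 492 ± 259 CPM and was detected in 55.7% of members and 0.426% of microglia nuclei. Ebf1, a transcription factor of mesenchymal and other cells, averaged 456 ± 49.6 CPM, Col3a1, the chain of type III collagen, 273 ± 88.2 CPM, Lum, the proteoglycan lumican, 126 ± 70.2 CPM and Igf2, insulin-like growth factor 2, 103 ± 36.5 CPM. Another 3 of the 10 were low or absent. Bnc2, a zinc-finger gene of meningeal fibroblasts, averaged 27.4 ± 25.9 CPM here and 2187 CPM in arachnoid-type nuclei, and Fbln1, the matrix protein fibulin 1, 18.8 ± 17.2 CPM and 169 CPM. Fn1, which encodes fibronectin, was at 0 of 262 nuclei, which allows a share of up to 1.15% of nuclei with a UMI and a level of up to 3.79 CPM, while it averaged 245 CPM in arachnoid-type nuclei.

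Markers of other cells were lower than in the remaining nuclei for some types, overlapped with them for others and were higher for the choroid plexus. The border-associated macrophage markers summed to 0 to 8.54 CPM over the 5 libraries, against 268 to 402 CPM in the nuclei of neither fibroblast kind, with F13a1, Pf4 and Lyve1 at 0 in every library. Endothelial markers summed to 40.9 to 101 CPM, most of it Slco1a4, an organic anion transporter, with Cldn5 and Ptprb at 0, against 83.1 to 217 CPM in those nuclei. Mural markers summed to 104 to 585 CPM, most of it Vtn, which encodes vitronectin, with Myh11 at 0, and so overlapped with 221 to 1116 CPM in those nuclei and exceeded 7.31 to 37 CPM in arachnoid-type nuclei. Microglia markers summed to 487 and 217 CPM in R241E and 134, 518 and 628 CPM in WT, against 3419.9 to 6820.0 CPM in the nuclei of neither kind. Dura markers stayed at 47.7 to 235 CPM, against 2662 to 3439.7 CPM in arachnoid-type nuclei. Kl, a choroid plexus marker that encodes klotho, averaged 125 ± 26.9 CPM in members, which held 90.3% of all its UMIs in the series, while Htr2c and Folr1 were at 0. The markers of neurons summed to 198 to 470.0 CPM and of oligodendrocytes to 55.3 to 402 CPM, against 665 to 1888 CPM and 944 to 2884 CPM in the nuclei of neither kind. Astrocyte markers summed to 492 to 714 CPM, mostly Plpp3 and Gja1, and overlapped with the 293 to 823 CPM of those nuclei. Ependymal markers summed to 0 to 20.4 CPM, Schwann cell markers to 7.94 to 208 CPM, mostly Cdh19, and lymphocyte markers to 61.3 to 260.4 CPM, mostly Themis.

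Precursors of oligodendrocytes also express Pdgfra, and their markers set a few members apart. Lhfpl3, Tnr, Cspg4 and Neu4 summed to at least 3 UMIs in 4 nuclei. In 2 nuclei of R241E replicate 1 they summed to 50 and 67 UMIs, and in 1 of R241E replicate 2 to 42 UMIs. In these 3 nuclei Pdgfra was the only one of the 6 genes detected, at 8, 6 and 5 UMIs, so they were members by 1 gene alone. The fourth, in WT replicate 1, held 7 such UMIs and only Adamts12. Results that involve these nuclei are given below also for the 247 members with at least 3 of the 6 genes, a limit chosen after the data were seen.

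**Figure D1:**
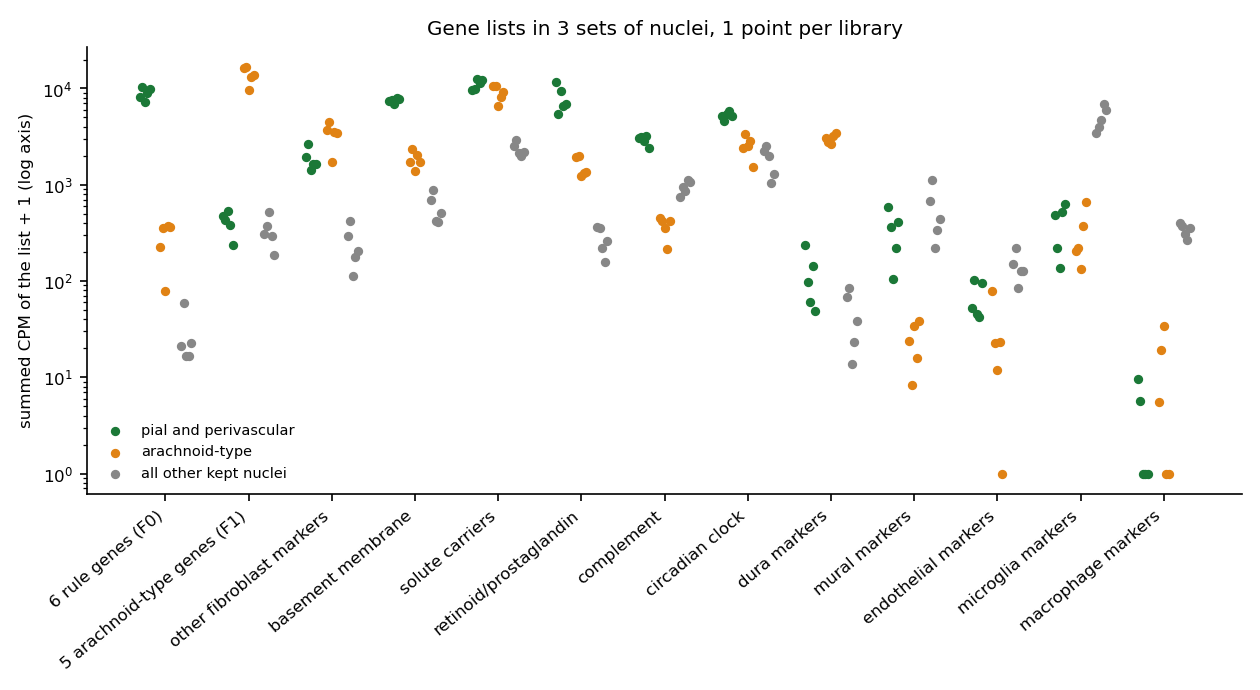
Summed levels of gene lists (CPM + 1, log axis) in members, arachnoid-type nuclei and all other kept nuclei, with 1 point for each of the 5 libraries. Basement membrane genes lie at 6947 to 7916 CPM in members and 1386 to 2347 CPM in arachnoid-type nuclei, while microglia markers reach 3419.9 to 6820.0 CPM in the other nuclei only.

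The members were next described by the roles of their genes, beside the arachnoid-type nuclei of the same libraries. Since the nuclei of both kinds were chosen by their genes, these differences carry no test. Among 7512 genes outside the rule with at least 50 UMIs, members lay above the arachnoid type in all 5 libraries for 14.4% and below it for 14.5%. Of 20 such basement membrane genes, 15 lay above in all 5 libraries and 1 below. Of the growth factor and receptor genes 17 of 34 lay above and 10 below, of the solute carriers and transporters 13 of 25 and 9, and of the myofibroblast and scar genes 8 of 11 and 0. Immediate-early and stress genes ran the other way, with 0 of 13 above and 5 below.

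The sheet on which the pia rests is built from laminins, type IV collagens and linkers between them. Lama2, the laminin α2 chain, was at 2164 and 2398 CPM in R241E and 1874, 2221 and 1739.6 CPM in WT, against a mean of 762 CPM in arachnoid-type nuclei. The type IV collagen chains α5 and α6, encoded by neighbouring genes, were at 1152 and 1144 CPM in R241E and 1145, 1213 and 1406 CPM in WT (Col4a5) and 1054 and 996 CPM in R241E and 1071, 1294 and 1469.5 CPM in WT (Col4a6). Their arachnoid-type means were 48 CPM and 10.8 CPM, so members lay far above them in every library. Lamc1, the common laminin γ1 chain, was nearly even over the libraries, at 636 and 646 CPM in R241E and 639.7, 702 and 643 CPM in WT. Col15a1, whose product bridges basement membrane and interstitial collagen, averaged 411 ± 61.8 CPM against 1.83 CPM, Lamc3, a laminin γ chain, 272 ± 27.3 CPM against 3.07 CPM, Lama4 267 ± 52 CPM against 66.2 CPM and the linker Nid1 246 ± 40.4 CPM against 55.7 CPM. The whole list of 23 genes summed to 6947 to 7916 CPM in members and 1386 to 2347 CPM in arachnoid-type nuclei.

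Summed as a list, fibrillar and associated collagens differed less between the kinds, at 1779 to 2993 CPM in members and 1551 to 2799 CPM in arachnoid-type nuclei. Col1a2 averaged 492 ± 259 CPM against 282 CPM, Col12a1, a fibril-associated collagen, 322 ± 119 CPM against 293 CPM and Col5a2 276 ± 105 CPM against 203 CPM. Col3a1 and Col1a1 differed more and were higher in members in every library. Col3a1 was at 405 and 281 CPM in R241E and 253, 266 and 159 CPM in WT. In arachnoid-type nuclei it was at 75.3 and 73.1 CPM in R241E and 33.0, 14.7 and 55.5 CPM in WT. Col1a1 was at 116 to 355 CPM in members and 22.0 to 84.1 CPM in arachnoid-type nuclei. Of 13 genes of this list with at least 50 UMIs, 5 lay above in all libraries and 3 below. Among matrix glycoproteins the level of Gpc6, a cell-surface heparan sulphate proteoglycan, was 1502 ± 440.1 CPM against 1860.4 CPM, and that of Efemp1, the matrix protein fibulin 3, 386 ± 86.9 CPM against 361 CPM. Mgp, the calcification inhibitor matrix Gla protein, ran the other way, at 81.9 ± 54.2 CPM against 2298 CPM. Of the proteases and their inhibitors, Adam12 averaged 669.9 ± 344 CPM, Timp3, an inhibitor of metalloproteases that is bound in the matrix, 317 ± 60.9 CPM and Adamts10 201 ± 34.5 CPM.

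Transporter genes summed to 9714 to 12585 CPM in members. Slc7a11, the cystine–glutamate exchanger, was at 1916 and 2347 CPM in R241E and 4121, 2779 and 3249 CPM in WT, with a mean of 158 CPM in arachnoid-type nuclei. Slc1a3, a glutamate transporter best known from astrocytes, was at 1268 and 1019 CPM in R241E and 1547, 1935 and 1859 CPM in WT. Aqp4, the water channel of astrocytes, averaged 2.56 ± 5.73 CPM against 15 CPM. Slc6a20a, a proline and imino acid transporter, averaged 1326 ± 196 CPM against 4.54 CPM, Abca8a, a lipid transporter of the ABC family, 391 ± 109 CPM against 7.65 CPM and Slc22a8, the organic anion transporter OAT3, 347 ± 94.9 CPM against 3.90 CPM. Slc38a2, a neutral amino acid transporter, was the main exception, at 399 ± 223 CPM against 5022 CPM.

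Retinoid and prostaglandin genes were led by Ptgds, which encodes the prostaglandin D synthase of cerebrospinal fluid. Its level was 9492 and 3795 CPM in R241E and 7111, 3733 and 4695 CPM in WT, and the groups overlapped. Ranbp3l, which encodes a nuclear export factor, averaged 1023 ± 379 CPM against 16.3 CPM. The retinaldehyde dehydrogenases, which make retinoic acid, averaged 422 ± 116 CPM against 65 CPM (Aldh1a1) and 208 ± 73.8 CPM against 1.94 CPM (Aldh1a2). The receptor Rarb was at 187 ± 58.4 CPM against 241.4 CPM.

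Signalling and immune genes varied by list. Of chemokine, cytokine and adhesion genes 4 of 12 lay above in all 5 libraries and 1 below, of interferon reception and DNA sensing genes 0 of 13 and 1, and of class I presentation and further interferon-induced genes 1 of 24 and 3. Each gene named next was higher in members in all 5 libraries, except Fgfr2 and Il33, which were higher in 4. Bmp6, a bone morphogenetic protein, averaged 1033 ± 239 CPM against 225 CPM, Ghr, the growth hormone receptor, 772 ± 168 CPM against 364 CPM, Robo2, a receptor for Slit ligands, 768 ± 279 CPM against 322 CPM and Fgfr2, a fibroblast growth factor receptor, 1045 ± 113 CPM against 892 CPM. Pdgfrb, the second receptor for platelet-derived growth factor, stood at 443 ± 53.3 CPM against 47.5 CPM. Colec12, a scavenger receptor of the collectin family, averaged 1803 ± 203 CPM against 24.6 CPM. Il34, a ligand of the microglial receptor CSF1R, was at 179 and 231 CPM in R241E and 283, 272 and 365 CPM in WT, with a mean of 5.07 CPM in arachnoid-type nuclei. Vcam1, an adhesion molecule for leukocytes, averaged 174 ± 99.6 CPM against 11 CPM, and Il33, a nuclear alarmin, 199 ± 99.7 CPM against 85.1 CPM. Spp1, which encodes osteopontin, averaged 221 ± 119.8 CPM against 16.5 CPM.

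Among transcription factors, Rora, a nuclear receptor of the circadian clock, was detected in 98.9% of members and 9.71% of microglia nuclei, at 3935 and 3260.4 CPM in R241E and 4269.5, 4142 and 3924 CPM in WT. The clock factors Hlf and Npas2 averaged 309 ± 121 CPM and 242 ± 89.4 CPM, against 87.7 CPM and 53.3 CPM in arachnoid-type nuclei. Tbx18, a T-box factor of mural and fibroblast lineages, averaged 604 ± 183 CPM against 91.8 CPM and Zic1, a zinc-finger factor of the meninges, 558 ± 139 CPM against 308 CPM. Foxp1, the forkhead relative of Foxp2, was lower in members, at 1092 ± 174 CPM against 3227 CPM, and so was Nfib, at 501 ± 104 CPM against 1015 CPM, while Nfia was at 1256 ± 226 CPM against 1391 CPM. Of junction and guidance genes, the ephrin receptors Epha7 and Epha3 averaged 693 ± 169 CPM and 527 ± 161 CPM, against 87.3 CPM and 75.3 CPM, and the tight junction adaptor Tjp1 584 ± 113 CPM against 255 CPM.

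**Figure D2:**
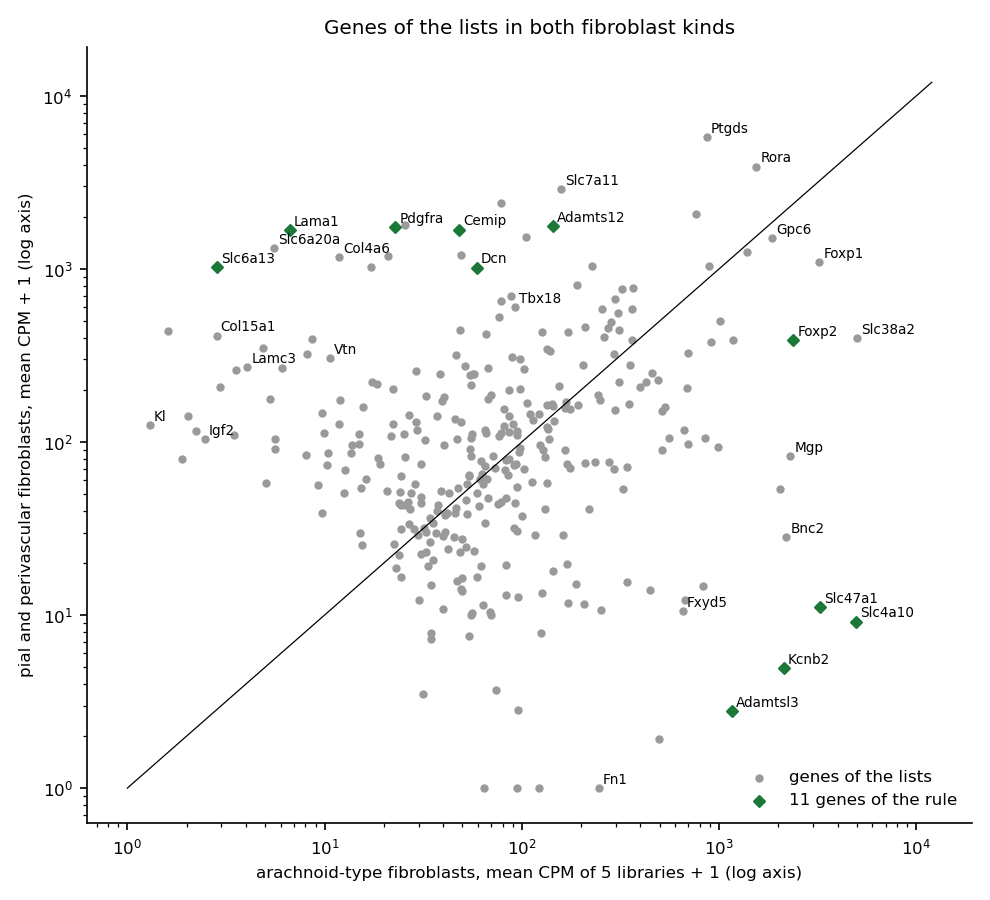
Mean level over the 5 libraries (CPM + 1, log axes) of each gene of the lists in arachnoid-type nuclei (horizontal) and in members (vertical), where diamonds are the 11 genes of the rule and the line marks equal levels. Slc6a20a, Col4a6 and Ptgds lie above the line, at means of 1326, 1177 and 5765 CPM in members, and Slc38a2, Mgp and Bnc2 below it.

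Against all other kept nuclei of the series, 15 genes outside the rule had the largest ratios among genes detected in at least 25% of members. Col13a1, a transmembrane collagen, led them. It averaged 260.0 ± 104 CPM, 241.4 times its mean in the other nuclei, and members held 87.6% of its UMIs in the series. Members also held 84.9% of the UMIs of Scara5, a ferritin receptor, 82.8% of those of Aldh1a2 and 74.6% of those of Slc13a4, a sulphate transporter. Itih5, a hyaluronan-associated protein, averaged 1192 ± 207 CPM and was 77.9 times its mean elsewhere. The remaining 10 were Gm6209, Col4a6, Lum, Cyp1b1, Bmp6, Tbx18, Col3a1, Wnt5a, Gm30624 and Col4a5, with ratios from 55.8 (Col4a5) to 209.9 (Gm6209). No ratio was tested, since these nuclei were selected on correlated genes.

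Among themselves the members differed most in a few genes. To compare nuclei at 1 depth, each was thinned to 1000 UMIs, which left 254 members and left out 8 with fewer. The Fano factor, the variance over the mean within libraries, is 1 where counts vary only by sampling. Over 267 genes with at least 100 UMIs after thinning its median was 1.31, and it exceeded 2 for 35 genes. Ptgds varied most, with a Fano factor of 42 (14.7 to 59.7 in single libraries). The 10% of nuclei with the most Ptgds held 67% of its UMIs, and 1 nucleus held 141 of its 1000 UMIs. Apod, which encodes the lipid carrier apolipoprotein D, had a Fano factor of 5.98 (1.16 to 9.25 in single libraries), Col1a2 one of 7.59 (0.714 to 15.9, with 30 of its 132 UMIs in 1 nucleus), Ranbp3l one of 4.73 and Slc7a11 one of 4.20. Rora and Lama1 were far more even, at 1.82 and 1.98. Of these, Apod was named after its values were seen.

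Trpm3, a calcium-permeable ion channel gene that was picked out after its values were seen, was nearly all-or-none. It was detected after thinning in 14.6% of members, the top 10% of nuclei held 94.4% of its UMIs, and its Fano factor was 15.6. In 217 nuclei it was at 0, in 10 it had 1 or 2 UMIs, and in 27 it had 3 or more. The 27 nuclei came from every library, 10 and 5 from R241E and 3, 6 and 3 from WT. In 24 of them at least 3 of the 6 rule genes were detected, and in 3 only 1.

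The Trpm3 nuclei differed from the other members in several genes, given here as means per 1000 UMIs and without a test, since the nuclei were split on 1 of their own genes. Ptgds stood at 23.5 against 3.98 in the other members and was higher in all 5 libraries. Slc24a3, a sodium–calcium exchanger, stood at 2.30 against 0.714, Bmp6 at 2.26 against 0.859 and Adam12 at 1.81 against 0.507, each higher in all 5 libraries, and Ranbp3l at 3.19 against 0.744, higher in 4. The rule genes Lama1 and Pdgfra were lower in all 5 libraries, at 0.370 against 1.85 and 0.444 against 2.03. The type IV collagen genes Col4a5 (0.630 against 1.35) and Col4a6 (0.481 against 1.23) and Flrt2, a membrane adhesion gene (0.630 against 1.77), were lower in all 5 as well. Over the 254 nuclei, log values within libraries correlated at 0.46 for Slc7a11 and Ranbp3l, 0.39 for Trpm3 and Ptgds, and -0.29 for Lama1 and Trpm3, as a description of nuclei that share a library and a depth. No doublet caller was run on these nuclei.

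**Figure D3:**
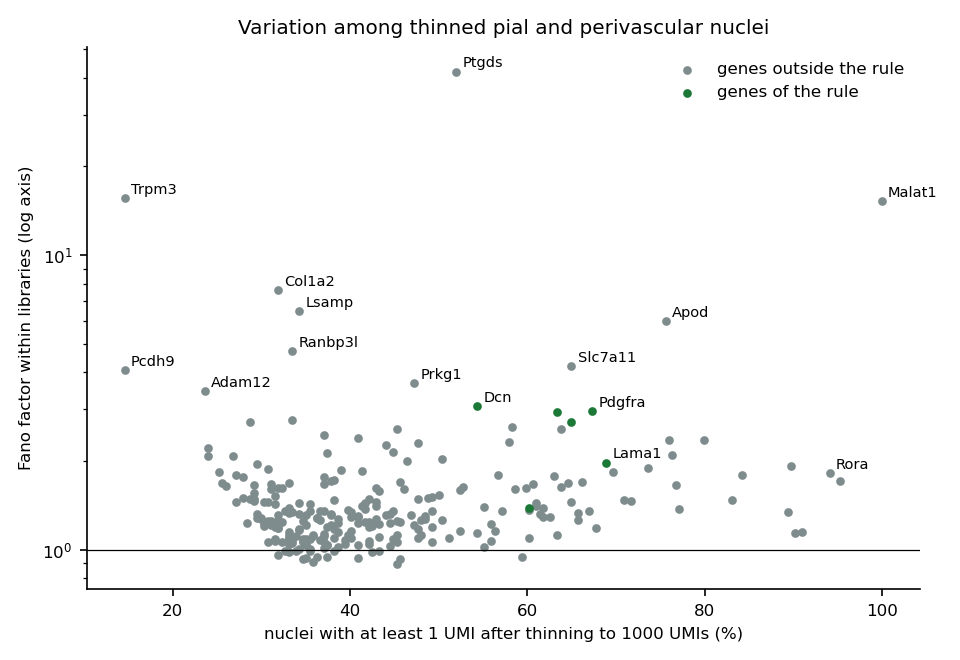
Fano factor within libraries (log axis) against the percentage of 254 members with at least 1 UMI, for 267 genes after thinning to 1000 UMIs, where the line marks a Fano factor of 1. Ptgds lies highest at 42 and Trpm3 stands apart at the left, at 15.6, while the rule genes (green) include Lama1 at 1.98.

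Whether the abundance of these nuclei differed with genotype depended on what they were counted against. Of all kept nuclei, members made up 2.62% (95% Wilson interval 2.05 to 3.34%) and 5.97% (4.83 to 7.36%) in R241E, and 1.43% (0.949 to 2.16%), 2.29% (1.72 to 3.05%) and 2.27% (1.73 to 2.97%) in WT. Both R241E libraries lay above all WT libraries, R241E replicate 1 by little, with means of 4.30% ± 2.37 (SD, n = 2) and 2.00% ± 0.489 (SD, n = 3). The exact two-sided permutation test over the 10 groupings gave p = 0.1, the smallest this design allows, so no difference in share can pass 0.05 here. Leaving out R241E replicate 2 took the difference from 2.30 to 0.623 percentage points.

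Microglia take part in that denominator. Nuclei with at most 2 UMIs of 6 microglia markers numbered 1157 of 2403 and 725 of 1357 in R241E, and 490 of 1534, 342 of 1965 and 634 of 2246 in WT. Among these, members made up 5.01% and 10.6% in R241E and 4.29%, 10.8% and 7.73% in WT, so that the groups overlapped (means 7.82% ± 3.97 and 7.61% ± 3.27, exact permutation p = 1.00). As a share of both fibroblast kinds, members were 32.1% and 53.6% in R241E and 50%, 60.8% and 50% in WT. R241E replicate 1 was the lowest and the other R241E library lay within the WT range (means 42.9% ± 15.2 and 53.6% ± 6.24, exact permutation p = 0.4).

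**Figure D4:**
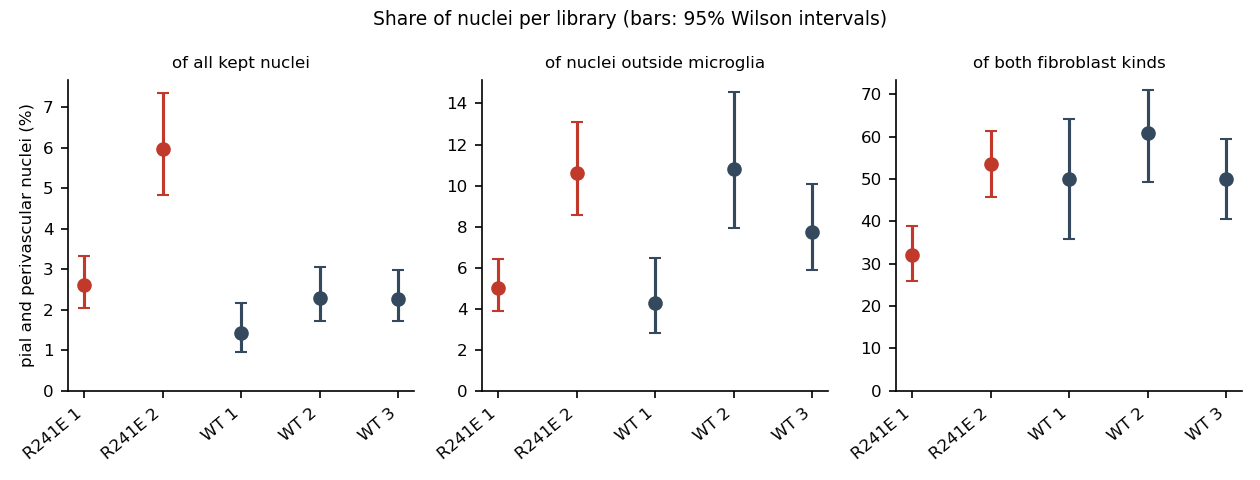
Members as a percentage of all kept nuclei, of nuclei with at most 2 microglia-marker UMIs, and of both fibroblast kinds, with 1 point per library and 95% Wilson intervals. R241E replicate 2 stands highest in the left panel at 5.97%, while in the middle and right panels the R241E and WT points overlap.

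Gene expression was then compared between R241E and WT over the summed counts of each library. None passed the adjusted threshold of 0.05. Of 3723 genes that passed the filter on low counts, 0 (0%) were called by edgeR's quasi-likelihood test, 175 had an unadjusted p under 0.05 (100 higher and 75 lower in R241E), DESeq2 called 1 and limma-voom 0. The median standard error was 0.38 on the log2 scale. Differences in single genes well above this size also went uncalled with 2 and 3 libraries. Apod, for example, had a log2 fold change of 1.16 (SE 0.26, adjusted p = 0.445 in edgeR), so 0 calls do not exclude such differences. For genes whose groups did not overlap, the background was 9.72% with both R241E libraries above all WT libraries and 9.91% with both below.

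The smallest p-values included genes with many UMIs in the 3 nuclei that held only Pdgfra. Kcnd2, a potassium channel gene, the 1 gene DESeq2 called, was at 632 and 115 CPM in R241E and 0, 6.81 and 7.94 CPM in WT, with a log2 fold change of 5.83 (SE 0.95 and adjusted p = 0.270 in edgeR), and 33 and 64 of its 148 UMIs in R241E replicate 1 lay in the 2 nuclei with oligodendrocyte precursor markers. Sox6, a transcription factor of that lineage, was at 273 and 111 CPM in R241E and 14.9, 20.4 and 39.7 CPM in WT and Pcdh15, a protocadherin, at 286 and 83 CPM in R241E and 29.8, 0 and 7.94 CPM in WT. With at least 3 of the 6 genes required of each member, Kcnd2 was at 0 and 9.64 CPM in R241E and 0, 7.46 and 8.07 CPM in WT. Pcdh15 was at 9.51 and 4.82 CPM in R241E and 37.4, 0 and 8.07 CPM in WT. Sox6 was at 42.8 and 96.4 CPM in R241E and 18.7, 22.4 and 40.3 CPM in WT, still without overlap. None of the 3 passed the filter on low counts. Further genes with small p-values were Ctnna3, an α-catenin, Mmp16, a membrane metalloprotease, the gene model Gm17268, Adra1a, the α1A adrenergic receptor, Fat3, a large cadherin, and Fbn2, which encodes fibrillin 2. Of these, Ctnna3 went from 35 to 1 UMIs in R241E replicate 1 when at least 3 genes were required, Fat3 from 25 to 7 and Mmp16 from 33 to 16. R241E replicate 2 still held 10, 40 and 34 UMIs of them under that limit. Fat3 was then at 33.3 and 193 CPM in R241E and 18.7, 0 and 32.3 CPM in WT, without overlap. Fbn2 was at 64 and 23.1 CPM in R241E and 149, 238 and 159 CPM in WT, lower in both R241E libraries (log2 fold change -2.06, SE 0.44, adjusted p = 0.357 in edgeR), and Mmp16 at 141 and 208 CPM in R241E and 14.9, 34.1 and 47.7 CPM in WT (log2 fold change 2.30, SE 0.42, adjusted p = 0.270 in edgeR). With at least 3 genes required, Mmp16 was at 76.1 and 164 CPM in R241E and 18.7, 37.3 and 48.4 CPM in WT, and its log2 fold change was 1.63, SE 0.51, while that of Fbn2 was -2.03, SE 0.43.

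Among the 247 members with at least 3 of the 6 genes, edgeR called 3 of 3340 genes (0.0898%). Apod rose, at 4486 and 4836 CPM in R241E and 1217, 1858 and 2332 CPM in WT, a log2 fold change of 1.36 (SE 0.25 and adjusted p = 0.0466 in edgeR). Both R241E libraries were well above the highest WT library. Gm17268 also rose, from 1, 0 and 0 UMIs in WT to 25 and 24 UMIs in R241E, and Adra1a fell, at 61.8 and 24.1 CPM in R241E and 225, 179 and 202 CPM in WT, a log2 fold change of -2.17 (SE 0.40). Over all 262 members the same genes had the same direction at an adjusted p of 0.445 (Apod), 0.270 (Gm17268) and 0.357 (Adra1a) in edgeR and were not called. With no filter on low counts all 3 were called over the 262 members, among 71 genes.

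By role, none of the lists held a called gene, and the median over all tested genes was -0.01 (log2). Over all tested genes, 9.72% lay higher and 9.91% lower without overlap, which is the background for the counts below. Of 17 tested basement membrane genes 7 had a positive and 10 a negative fold change (median -0.06), and 1 did not overlap between the groups, Col4a6, which was lower. Lama2 had a log2 fold change of 0.23 (SE 0.20) and Lamc1 of -0.04 (SE 0.21). Of 9 fibrillar collagens tested, 6 were positive (median 0.55), and Col1a1, Col3a1 and Col5a3 lay higher without overlap. Col1a1 was at 184 and 355 CPM in R241E and 119, 116 and 159 CPM in WT (log2 fold change 1.03, SE 0.36). Of 18 matrix glycoprotein and proteoglycan genes, 13 were positive and 5 negative (median 0.30), with 4 higher and 2 lower without overlap. Lum was at 137 and 231 CPM in R241E and 44.6, 81.7 and 135 CPM in WT. Of 10 proteases, inhibitors and crosslinkers, 6 were positive and 4 negative (median 0.14), with 2 higher and 1 lower without overlap. Pcolce, an enhancer of procollagen processing, was at 188 and 203 CPM in R241E and 89.3, 88.6 and 103 CPM in WT. None was called.

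Most tested transporters had a negative fold change. Of 19, these were 13 (median -0.33), while 8 of the 19 lay lower in both R241E libraries than in any WT library, and 2 higher, where the background was 9.91% and 9.72% of genes. Slc7a11 had a log2 fold change of -0.66 (SE 0.24 and adjusted p = 1.00 in edgeR), with its values given above, and Slc1a3 of -0.64 (SE 0.21 and adjusted p = 0.962 in edgeR). The clock factor Npas2 was at 175 and 157 CPM in R241E and 268, 381 and 230.4 CPM in WT (log2 fold change -0.83, SE 0.30), lower without overlap. For Il33 the levels were 329 and 263 CPM in R241E and 74.4, 184 and 143 CPM in WT (log2 fold change 1.07, SE 0.33) and for Spp1 235 and 406 CPM in R241E and 74.4, 184 and 207 CPM in WT (0.97, SE 0.38), both higher without overlap. Outside the interferon-related lists, medians of the remaining lists lay between -0.39 for 2 immediate-early and stress genes and 0.48 for 7 chemokine, cytokine and adhesion genes, and retinoid and prostaglandin genes had a median of 0.03 over 8 genes.

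Interferon genes were examined to ask whether fibroblasts of a brain with overactive cGAS in microglia differed in them. The list of 28 genes was the one the study used to score microglia, drawn by it from earlier work. In members 25 of the 28 had UMIs, with Ifi44, Ifi204 and Oas3 at 0, and 8 passed the filter on low counts. None was called. Summed over all 28 genes the level was 1396 and 1300.5 CPM in R241E and 788, 715 and 874 CPM in WT, so both R241E libraries lay above all WT libraries. By mean CPM 22 of the 25 genes were higher in R241E and 3 lower, where 52.4% of 17357 genes with a UMI in members were higher.

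The 8 tested genes all had a positive fold change, with a median of 0.75 on the log2 scale. The filter on low counts asks for enough counts in only 2 libraries, so a gene can pass through the R241E libraries alone. Usp18 and Oasl2, low in every WT library, passed in this way. The count of positive genes, the count without overlap and the median therefore depend in part on the filter. Usp18, which removes ISG15 from proteins, was at 81.1 and 73.8 CPM in R241E and 14.9, 6.81 and 23.8 CPM in WT (log2 fold change 2.34, SE 0.71, adjusted p = 0.890 in edgeR). Oasl2, of the oligoadenylate synthetase family, was at 68.3 and 78.4 CPM in R241E and 14.9, 27.2 and 31.8 CPM in WT (1.47, SE 0.59) and Sp100, of nuclear bodies, at 154 and 171 CPM in R241E and 74.4, 102 and 47.7 CPM in WT (1.10, SE 0.36). In both, the R241E values exceeded every WT value. Stat2 (0.96, SE 0.41) did not overlap either, while St8sia1 (0.23, SE 0.49), Rnf213 (0.16, SE 0.39) and Chic1 (0.09, SE 0.40) did, so that 5 of the 8 lay above without overlap, against 9.72% of all tested genes. The 20 genes below the filter together held 87 and 72 UMIs in R241E and 12, 22 and 25 in WT, or 371 and 332 CPM against 179, 149.9 and 199 CPM. Ifit2 was an exception, at 21.3 and 23.1 CPM in R241E and 134, 47.7 and 31.8 CPM in WT.

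Further interferon-induced and class I presentation genes were given by a second list of 40, of which 38 were in the files and all 38 had UMIs. By mean CPM 33 were higher in R241E and 5 lower, where 52.4% of 17357 genes with a UMI in members were higher. Their sum was 2177 and 1609 CPM in R241E and 729, 988 and 1192 CPM in WT. Of these, 8 were tested, all with a positive fold change (median 1.17), and none was called. In 7 of the 8 both R241E libraries lay above all WT libraries, against 9.72% of all tested genes. Among the 8, B2m, H2-D1 and Ifitm3 passed the filter on low counts through their R241E libraries alone. Both counts and the median therefore depend in part on the filter. With no filter on low counts B2m passed the threshold, at a log2 fold change of 2.46 and an adjusted p of 0.0242 in edgeR, and over all alternatives its adjusted p ran from 0.0242 to 1.00. B2m, the light chain of class I molecules, was at 115 and 73.8 CPM in R241E and 29.8, 13.6 and 15.9 CPM in WT (log2 fold change 2.36, SE 0.60, adjusted p = 0.577 in edgeR). The class I heavy chain gene H2-D1 was at 115 and 92.2 CPM in R241E and 44.6, 54.5 and 55.6 CPM in WT (0.98, SE 0.38), a value left uncertain by near-identical class I genes that can share reads, and Ifitm3, an antiviral membrane protein, at 141 and 134 CPM in R241E and 59.5, 47.7 and 63.5 CPM in WT (1.29, SE 0.35). Genes of interferon reception and DNA sensing had a median of 0.24 over 8 tested genes, none of them called. By mean CPM 8 of the 19 with UMIs in members were higher in R241E and 11 lower. With at least 3 rule genes required, their median was -0.10 over 7 genes.

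**Figure D5:**
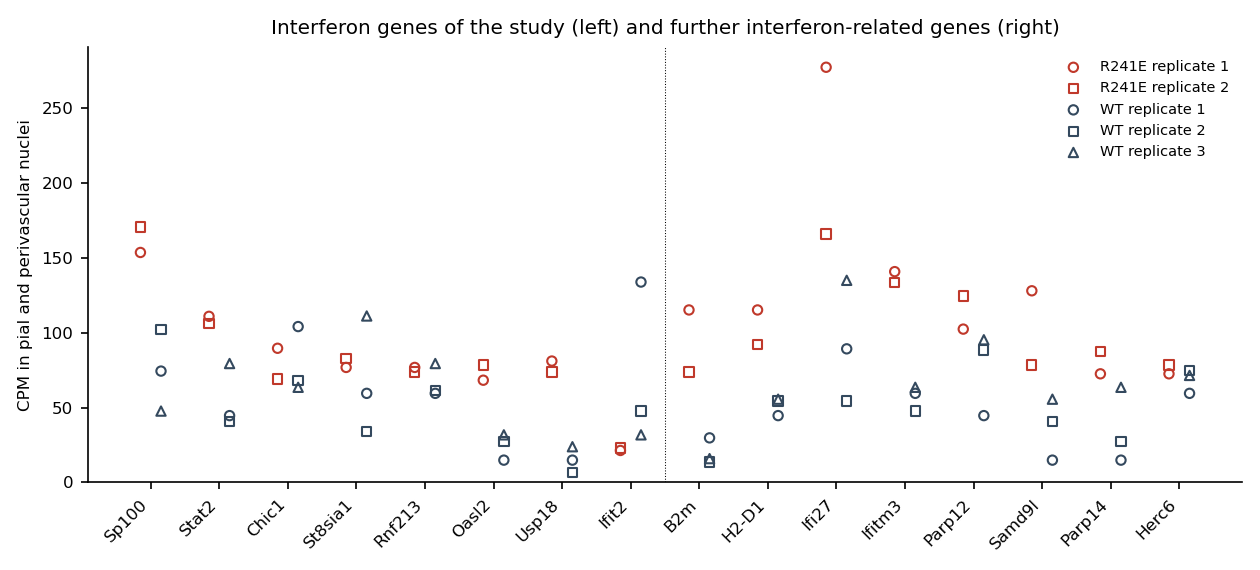
Level in members (CPM) of 7 tested genes of the study's interferon list and Ifit2 (left of the dotted line) and of 8 further interferon-related genes (right), with 1 marker per library. For B2m, H2-D1, Usp18 and Oasl2 both R241E markers (red) lie above the 3 WT markers (blue), whereas Chic1, Rnf213 and St8sia1 overlap and Ifit2 is reversed.

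The level of microglial RNA in the members was measured beside these genes. Microglia nuclei held the interferon list at 3167 and 2782 CPM in R241E and 580, 532 and 572 CPM in WT. Microglia markers in members stood at 7.50% and 3.07% of their level in microglia nuclei in R241E and at 1.80%, 6.4% and 7.87% in WT. At those percentages, the list in microglia nuclei corresponds to 237 and 85.3 CPM in R241E and 10.4, 34.0 and 45 CPM in WT. The members' own sums exceeded the WT mean by 603 CPM in R241E replicate 1 and by 508 CPM in R241E replicate 2. For B2m the microglial level corresponds to 31.7 and 16.4 CPM in R241E. The part of microglial RNA in these differences was not tested. With at most 1 microglia-marker UMI allowed in each member, 5 genes of the list passed the filter and their median was 0.43, where the same 5 genes had 0.55 over all members. With at least 3 rule genes required, 6 genes passed, with a median of 0.31 against 0.39 for the same 6 over all members. Usp18 and Oasl2 were below the filter in both settings. With at least 3 rule genes Usp18 was at 61.8 and 72.3 CPM in R241E and 18.7, 0 and 24.2 CPM in WT, so both R241E libraries still lay above all WT libraries. The second list had a median of 1.15 over 7 genes with at least 3 rule genes.

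Counted by nucleus, the interferon list gave a smaller difference. After thinning to 1000 UMIs, 2 or more UMIs of the list were held by 31.7% and 21.3% of members in R241E and 13.6%, 20.9% and 21.6% in WT. The groups overlapped (means 26.5% ± 7.36 and 18.7% ± 4.41, exact permutation p = 0.2, where 0.1 is the smallest possible). Unthinned, the shares were 79.4% and 60.5% in R241E and 72.7%, 60% and 49.0% in WT. Arachnoid-type nuclei, thinned, gave 21.1% and 25% in R241E and 27.3%, 21.4% and 10% in WT.

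Whether the genotype acted differently on the 2 kinds of fibroblast was tested as an interaction, with the library as a covariate. Of 5008 genes tested by edgeR, 1 (0.02%) was called, while an unadjusted p under 0.05 was reached by 269. Pcdh15 was at 286 and 83 CPM in R241E and 29.8, 0 and 7.94 CPM in WT in members and at 24.1 and 7.31 CPM in R241E and 121, 154 and 30.8 CPM in WT in arachnoid-type nuclei, so the directions were opposite (difference in log2 fold change 6.79, SE 0.88, edgeR adjusted p = 0.0402). In R241E replicate 1, 28 and 37 of its UMIs lay in the 2 nuclei with oligodendrocyte precursor markers. With at least 3 of the 6 genes required, the difference was 2.00 at an adjusted p of 0.996 in edgeR, and 1 of 4863 genes (0.0206%) was called, Grm7, a glutamate receptor gene. The next smallest p-values with a positive difference were those of Erbb4, a neuregulin receptor, and Lhfpl3, one of the oligodendrocyte precursor markers. In R241E replicate 1 Erbb4 went from 86 to 0 UMIs and Lhfpl3 from 75 to 1 when at least 3 genes were required. With a negative difference the smallest included those of Nkain2 and Zfp521. None of these was called.

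The interferon genes were not called in that test. Summed in arachnoid-type nuclei, the study's list was at 1002 and 834 CPM in R241E and 1386, 904 and 703 CPM in WT, where the groups overlapped, and the second list at 1699 and 1441 CPM in R241E and 1914, 1139 and 1498 CPM in WT. By gene, 3 of 5 tested there from the study's list had a positive fold change (median 0.53), and 7 of 11 from the second (median 0.37). B2m was at 81.3 and 87.7 CPM in R241E and 22.0, 44.1 and 55.5 CPM in WT. It lay higher without overlap in this kind too, as did Stat2 and Oasl2, while Usp18, Sp100, H2-D1 and Ifitm3 overlapped. Within arachnoid-type nuclei alone, edgeR called 0 of 4001 genes, with 180 at an unadjusted p under 0.05. An interval for the difference between the kinds in the summed lists was not computed.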

How the data were processed

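Nuclei were sequenced in 5 libraries with the 10x Genomics Chromium 3′ v3.1 kit. The authors processed the reads with Cell Ranger against mm10 and deposited raw UMI counts per gene and called barcode, for 32285 genes; how intronic reads and strand were counted is not given in the sources used here, and reads that map to several genes are left out of such counts. The limits of the study were applied, which keep a nucleus with at least 200 genes but below 4500, and below 10000 UMIs with less than 5% of them mitochondrial. Doublets were limited only by these and the mural and neuronal limits, with no caller.

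Members and gene lists were chosen with earlier results of these data known. The 17 lists, the marker lists and the genes named are those of a written rule: of each list the 4 with the most UMIs in members and the one with the smallest p, every called gene, the genes of the rule, every tested gene of the interferon list, the 3 of smallest p in each direction of the interaction and the 15 largest ratios; genes named outside it are said to be so or illustrate a list, and were chosen after their values were seen. A few genes that the rule names are not reported here. Counts of members were summed per library, since the study's test of single nuclei treats nuclei of 1 mouse as replicates. The sums were tested with edgeR 4.0.16 in R 4.3.3 (glmQLFTest, TMM scaling, filterByExpr) with Benjamini-Hochberg adjustment over all genes tested, called at an adjusted p under 0.05. DESeq2 1.42.0 and limma 3.58.1 (voom) were alternatives. For the interaction, sums per library and kind were fitted with library as a covariate. Shares were compared by exact two-sided permutation. Nuclei were thinned to 1000 UMIs with a fixed seed. The scripts were tested on simulated counts. Replicates are separate mice by the mouse numbers in the titles, and p-values measure the spread between these mice.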

Additional observations from a re-analysis of the deposited data

Results flagged for a closer look

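One gene differed between the kinds of fibroblast in the effect of genotype. For Pcdh15, a protocadherin gene, the log2 fold change of R241E over WT was larger by 6.79 (SE 0.88, edgeR adjusted p = 0.0402) in the pial and perivascular nuclei than in the arachnoid-type nuclei. Its level was 286 and 83.0 CPM in R241E and 29.8, 0 and 7.94 CPM in WT in the former. In R241E replicate 1, 28 and 37 UMIs, and in R241E replicate 2, 17 UMIs of the gene lay in the 3 nuclei in which Pdgfra was the only rule gene and oligodendrocyte precursor markers reached 50, 67 and 42 UMIs. With at least 3 of the 6 rule genes required of each nucleus, the difference was 2.00 (edgeR adjusted p = 0.996).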

How the results depend on the processing

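The comparison rests on 2 R241E and 3 WT mice and 22 to 81 nuclei a library, which limits calls to large differences, and no share can reach a p under 0.1. The number of genes called for genotype, 0 as reported, was 71 with no filter on low counts (50 higher and 21 lower), 1 with DESeq2, 3 with at least 3 of the 6 rule genes, and 0 to 5 with each library left out in turn (5 without R241E replicate 2, among them Pcdh15, Kcnd2 and Sox6). With the mouse number as a replicate block it was 5 (2 higher and 3 lower), Apod (adjusted p = 0.0327 in edgeR), Asic2, Nkain2, Sdk1 and Kcnd2. With at least 3 rule genes required, Kcnd2 went from 148 to 0 UMIs in R241E replicate 1. In WT replicate 1 Asic2 went from 36 to 3 UMIs, Nkain2 from 28 to 3 and Sdk1 from 36 to 0. In WT replicate 2 these 3 genes went from 45, 36 and 24 UMIs to 45, 35 and 23. The numbers pair nothing that the labels state: with 2 pairs, deviations of same-numbered libraries correlated at 0.201 and 0.157, so the block is given here only. The interaction, 1 gene as reported, gave 48 with no filter, 0 with at least 6 UMIs of the rule genes, 0 with at most 1 microglia-marker UMI, 0 with the upper limits lifted, and 0 to 25 with each library left out (25 without R241E replicate 2, 13 without WT replicate 1, 9 without R241E replicate 1 and 0 without WT replicate 2). Without either R241E library the lone R241E sample is assumed to vary like the WT libraries.

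The median log2 fold change of the interferon list, 0.75, was 1.33 with no filter, 0.37 with at least 6 UMIs of the rule genes, 0.43 with at most 1 microglia-marker UMI, 0.31 with at least 3 rule genes and 0.44 to 0.85 with each library left out (0.44 without R241E replicate 1 and 0.46 without R241E replicate 2). It stayed positive in each of these. At 0.37, 0.43 and 0.31 only 6, 5 and 6 genes passed the filter, without Usp18 and Oasl2, and the same genes had medians of 0.39, 0.55 and 0.39 as reported; with no filter the 8 tested genes had 0.85, and without R241E replicates 1 and 2 the shared 8 and 7 genes had 0.69 and 0.66. The difference in the share of kept nuclei ranged from 0.623 to 3.97 percentage points with each library left out, and that in nuclei with 2 or more interferon-list UMIs from 2.62 to 13. The latter, 7.83 as reported, was 14.7 with at most 1 microglia-marker UMI, 13.2 with at least 3 rule genes and 12 with at least 6 UMIs of the rule genes, where p was 0.1, the smallest possible. The difference in the share outside microglia, 0.206 percentage points, was -0.246 with at least 3 UMIs of the rule genes, -0.0975 with at most 1 microglia-marker UMI and -2.60 to 3.01 with each library left out; among both fibroblast kinds, -10.7 as reported, it was -21.5 to 0.0388. Of the named genes, Chic1 (0.09) was -0.090 with the replicate block, -0.028 and -0.048 with at least 3 and at least 6 UMIs of the rule genes, -0.38 with at most 1 microglia-marker UMI, -0.090 with at least 3 rule genes and -0.10 to 0.29 with each library left out, St8sia1 was -0.20 to 0.88, and Rnf213 was -0.031 with at least 6 UMIs. The causes were not tested. The other 167 values of named genes kept their direction and side of the threshold, 12 passed it and 5 no longer did. The limit of 3 rule genes was chosen after seeing the data.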
